A study of Bos taurus with 28 samples.

Results

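SLC7A3, SLC27A3 and SLC22A3 are solute carriers, membrane proteins that move nutrients and other small molecules into or out of cells, and their expression was followed here in the endometrium of 28 heifers. They are 3 of the 24596 gene IDs counted (ENSBTAG00000007403 for SLC7A3, ENSBTAG00000021862 for SLC27A3 and ENSBTAG00000039080 for SLC22A3). All were chosen by the study's own fold changes and p-values between HF and CTRL heifers, which placed SLC7A3 and SLC27A3 among its leading genes and SLC22A3 among the carriers with lower expression. Values between HF and CTRL heifers are therefore given as a description, without a test. LF against CTRL and HF against LF were tested, but each shares heifers with the comparison that chose the genes. That choice favoured genes far apart in these HF and CTRL heifers, so p-values of the carriers in both tested comparisons can be too small.

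The HF treatment held 10 heifers inseminated with frozen-thawed semen of high-fertility bulls, the LF treatment held 10 heifers inseminated with that of low-fertility bulls, and the 8 CTRL heifers received no insemination. In all 28 animals the cycle was synchronised with an intravaginal progesterone device, gonadotrophin-releasing hormone and prostaglandin F2 alpha, and uterine tissue was taken after slaughter, 12 h after insemination in HF and LF. HF and LF each used 5 Holstein-Friesian bulls with 2 heifers per bull, 1 in each of 2 study replicates, so the 10 heifers of a treatment stand for 5 bulls. CTRL heifers received neither semen nor an insemination of any kind, and an effect of the procedure cannot be told apart from one of semen. Ages were not given in the sources used here, and the heifers, labelled Holstein-Friesian, are listed as cross-breds in the study's supplement. Tissue came from the intercaruncular wall of the horn on the side of ovulation, with the endometrium dissected from the muscle below it.

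SLC7A3 encodes a cationic amino acid transporter (CAT-3) that carries arginine, lysine and ornithine without coupling to sodium. SLC27A3 encodes fatty acid transport protein FATP3, a member of a family that promotes fatty acid uptake and carries acyl-CoA synthetase activity. SLC22A3 encodes the organic cation transporter OCT3, a low-affinity carrier of monoamines such as noradrenaline, and of histamine, outside neurons. The endometrium supplies amino acids and lipids to the uterine lumen, where spermatozoa and later the early embryo reside, and organic cation transporters of this kind clear amines from tissue fluid. In the RefSeq annotation of assembly ARS-UCD2.0, a later build than that of the counts, SLC7A3 lies between SNX12 and TEX11 and SLC27A3 between GATAD2B and INTS3, with 0 overlapping genes each, and SLC22A3 lies between its relative SLC22A2 and PLG and overlaps 1 tRNA gene.

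Values are normalized CPM (counts per unit of library size, scaled with TMM factors so that libraries are comparable). Total counts per heifer were 14872812 to 24024538 in HF, 16039311 to 25633259 in LF and 15458403 to 22834975 in CTRL. SLC7A3 had 18 to 63 counts per HF heifer, 5 to 36 per LF heifer and 1 to 12 per CTRL heifer, so single values of this gene carry a wide counting error. For the single count in CTRL1 the exact Poisson 95% interval ran from 0.0253 to 5.57 counts, which covers counting error only. SLC27A3 had 300 to 571, 213 to 512 and 164 to 365 counts, and SLC22A3 9 to 46, 11 to 75 and 21 to 172 counts in HF, LF and CTRL heifers.

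SLC7A3 was highest in HF heifers, lower in LF and lowest in CTRL. Its lowest, median and highest values were 0.880 (HF7), 1.51 and 3.91 CPM (HF9) in HF heifers, 0.271 (LF5), 0.597 and 2.07 CPM (LF7) in LF heifers, and 0.0582 (CTRL1), 0.406 and 0.806 CPM (CTRL7) in CTRL heifers. The HF and CTRL ranges did not overlap, while LF heifers spread over both. Expression averaged 1.85 ± 1.01 CPM in HF, 0.830 ± 0.566 CPM in LF and 0.431 ± 0.249 CPM in CTRL heifers (SD, n = 10, 10 and 8). SLC7A3 was thus 4.27-fold higher in HF than in CTRL heifers (log2FC 2.09, standard error 0.40). Not 1 of the 10 HF heifers reached down to the highest CTRL heifer, and such a separation with HF higher was found for 4 of the 14885 genes tested (0.0269%), a count from which nothing is read because the gene was chosen on it.

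**Figure D1:**
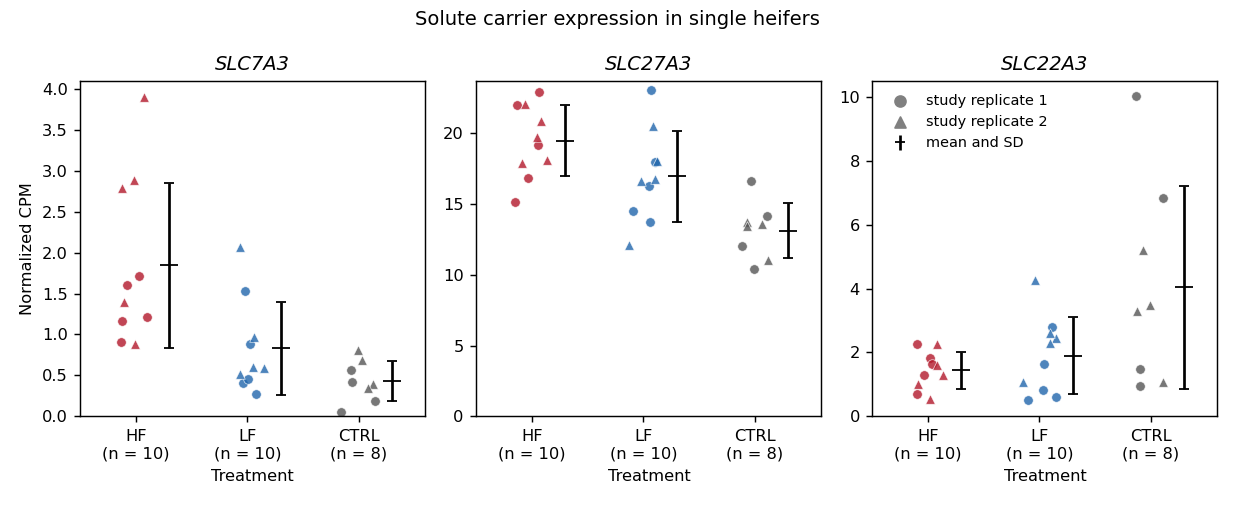
Normalized CPM (linear y axes from 0, a scale for each gene) of SLC7A3, SLC27A3 and SLC22A3 in HF, LF and CTRL heifers (x axes). Each point is a heifer, circles are study replicate 1 and triangles study replicate 2, and the bar is the mean with 1 SD; all 10 HF heifers exceed all 8 CTRL heifers for SLC7A3, 9 of 10 do for SLC27A3, and for SLC22A3 the CTRL heifers spread from 0.956 to 10.02 CPM.

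The test of SLC7A3 between LF and CTRL heifers did not pass. Expression was 1.93-fold higher in LF heifers (log2FC 0.95, standard error 0.44, 95% interval 0.09 to 1.80), with an edgeR quasi-likelihood p of 0.0428 before and 0.874 after Benjamini-Hochberg adjustment over 14849 genes, and a DESeq2 adjusted p of 0.781. A 2-sided exact permutation test over all 43758 splits of the heifers gave p = 0.0567. Of the 10 LF heifers, 4 (LF3, LF4, LF7 and LF9) lay above every CTRL heifer and 8 above the CTRL median. Across the genes tested, edgeR called 0 at an adjusted p under 0.05 (0.00%), DESeq2 called 2 of 19181 (0.0104%), and 839 stood at an unadjusted p under 0.05 in edgeR (5.65%).

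Between HF and LF heifers SLC7A3 was 2.20-fold higher in HF (log2FC 1.14, standard error 0.36, 95% interval 0.43 to 1.85). A 2-sided permutation test of this gene alone gave p = 0.00407 (100000 resamples), and edgeR gave an unadjusted p of 0.00466. The gene was chosen for high values in these same HF heifers, so both p-values can be too small. Adjusted over the 14793 genes tested the edgeR p was 0.461, and the DESeq2 adjusted p was 0.171, so neither tool called the gene. All 10 HF heifers lay above the LF median, 3 of them (HF6, HF9 and HF10) above every LF heifer, and 6 LF heifers lay below every HF heifer. For this comparison edgeR called 0 genes at an adjusted p under 0.05 (0.00%), had 1171 at an unadjusted p under 0.05 (7.92%), 491 of them higher in HF (3.32%), and DESeq2 called 27 of 19238 (0.140%). Of the 3 carriers only SLC7A3 was among the 1171.

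SLC27A3 followed the same order of treatments with smaller differences and less spread. Its lowest, median and highest values were 15.1 (HF1), 19.5 and 23.0 CPM (HF2) in HF heifers, 12.1 (LF10), 16.7 and 23.1 CPM (LF1) in LF heifers, and 10.4 (CTRL3), 13.6 and 16.6 CPM (CTRL2) in CTRL heifers. HF and CTRL met only at HF1, which lay below CTRL2, and the LF range took in the whole HF range. Means were 19.5 ± 2.53 CPM in HF, 17.0 ± 3.21 CPM in LF and 13.1 ± 1.96 CPM in CTRL heifers (SD, n = 10, 10 and 8). The coefficient of variation was 13.0% in HF, 18.9% in LF and 14.96% in CTRL heifers, whereas for SLC7A3 it was 54.6%, 68.2% and 57.7%. In HF heifers SLC27A3 was 1.48-fold higher than in CTRL heifers (log2FC 0.57, standard error 0.11), and 9 of 10 HF heifers exceeded the highest CTRL heifer.

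In LF heifers SLC27A3 was 1.29-fold higher than in CTRL heifers (log2FC 0.37, standard error 0.14, 95% interval 0.10 to 0.64). A 2-sided exact permutation test of this gene alone gave p = 0.00820, with 6 of 10 LF heifers above every CTRL heifer and 9 above the CTRL median. The gene was chosen for low values in these same CTRL heifers relative to HF, so this p can be too small. In the fit across all genes the edgeR p was 0.0132 before and 0.874 after adjustment, and the DESeq2 adjusted p was 0.640, so the difference failed the correction. The difference between HF and LF heifers was not called (log2FC 0.19, standard error 0.12, 95% interval −0.04 to 0.42, edgeR p = 0.119 before and 0.727 after adjustment). Of the 10 HF heifers, 9 lay above the LF median and 0 above every LF heifer. The permutation test for HF against LF gave p = 0.0611, and the interval leaves room for up to 0.42 on the log2 scale.

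SLC22A3 ran the other way, with the highest values in CTRL heifers, and the CTRL heifers themselves differed widely. Its lowest, median and highest values were 0.548 (HF8), 1.45 and 2.27 CPM (HF5) in HF heifers, 0.507 (LF2), 1.96 and 4.27 CPM (LF10) in LF heifers, and 0.956 (CTRL2), 3.39 and 10.02 CPM (CTRL1) in CTRL heifers. CTRL1, CTRL4, CTRL5, CTRL6 and CTRL7 lay above every HF heifer, whereas CTRL2, CTRL3 and CTRL8 lay within the HF range. Means were 1.44 ± 0.591 CPM in HF, 1.90 ± 1.199 CPM in LF and 4.05 ± 3.18 CPM in CTRL heifers (SD, n = 10, 10 and 8). SLC22A3 was 2.79-fold lower in HF than in CTRL heifers (log2FC −1.48, standard error 0.42), with 10 of 10 HF heifers below the CTRL median but 2 below every CTRL heifer. Without CTRL1 alone the log2FC was −1.15. At an unadjusted p under 0.05 edgeR had 2386 of 14885 genes between HF and CTRL heifers (16.0%), it called 0 after adjustment (0.00%), and DESeq2 called 328 of 19178 (1.71%), values from the comparison that chose the carriers.

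LF heifers were lower than CTRL heifers in SLC22A3 by 2.12-fold (log2FC −1.08, standard error 0.48, 95% interval −2.03 to −0.14), and this too failed the correction (edgeR p = 0.0357 before and 0.874 after adjustment, DESeq2 adjusted p = 0.721). The 2-sided exact permutation test gave p = 0.0965. CTRL1, CTRL4 and CTRL6 lay above every LF heifer, and 9 of 10 LF heifers lay below the CTRL median. Between HF and LF heifers the log2FC of SLC22A3 was −0.41 (standard error 0.36, 95% interval −1.11 to 0.29, edgeR adjusted p = 0.834, permutation p = 0.536). All 3 carriers stood at an unadjusted p under 0.05 between LF and CTRL heifers, as did 44.6% of the genes with a name, since names came mainly from rows sorted by p for this comparison, the row that named SLC22A3 among them. HF and LF heifers were also set against the same 8 CTRL heifers. When both heifers of a bull were summed into 1 library, the unadjusted edgeR p for LF against CTRL was 0.0645 for SLC7A3, 0.0350 for SLC27A3 and 0.0526 for SLC22A3. Each CTRL heifer stayed a library of its own in that fit, so pooled LF heifers were set against single CTRL heifers.

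Each bull was represented by 2 heifers, and the spread between them was large for SLC7A3 and SLC22A3. Counts of these 2 genes were low (10 in LF2 and 36 in LF7 for SLC7A3), so counting error adds to their ratios, by a share that was not tested. Bull means of SLC7A3 ran from 1.24 to 2.81 CPM over the 5 HF bulls and from 0.392 to 1.26 CPM over the 5 LF bulls, so the lowest HF bull (bull 7) and the highest LF bull (bull 2) were nearly level. The higher heifer of a bull had up to 3.18 times the SLC7A3 level of the other in HF and up to 4.48 times in LF, where LF bull 2 gave 0.460 CPM in LF2 and 2.07 CPM in LF7. SLC27A3 was close between the heifers of a bull, at 1.004 to 1.28 times in HF and 1.11 to 1.37 times in LF, with bull means of 16.6 to 22.0 CPM in HF and 12.9 to 19.9 CPM in LF. For SLC22A3 bull means ran from 0.982 to 1.77 CPM in HF and from 1.35 to 2.63 CPM in LF, and the ratio within a bull reached 2.96 in HF and 5.25 in LF. The 2 heifers of a bull also belonged to different study replicates, so the heifer and the study replicate cannot be told apart within a bull. The p-values above treat heifers as independent. With bulls as the unit (counts of the 2 heifers summed, CTRL heifers left single), log2FC for LF against CTRL was 0.90 for SLC7A3, 0.34 for SLC27A3 and −1.15 for SLC22A3, and for HF against LF it was 1.17 (standard error 0.35, edgeR p = 0.00583, adjusted p = 0.326), 0.21 and −0.37.

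**Figure D2:**
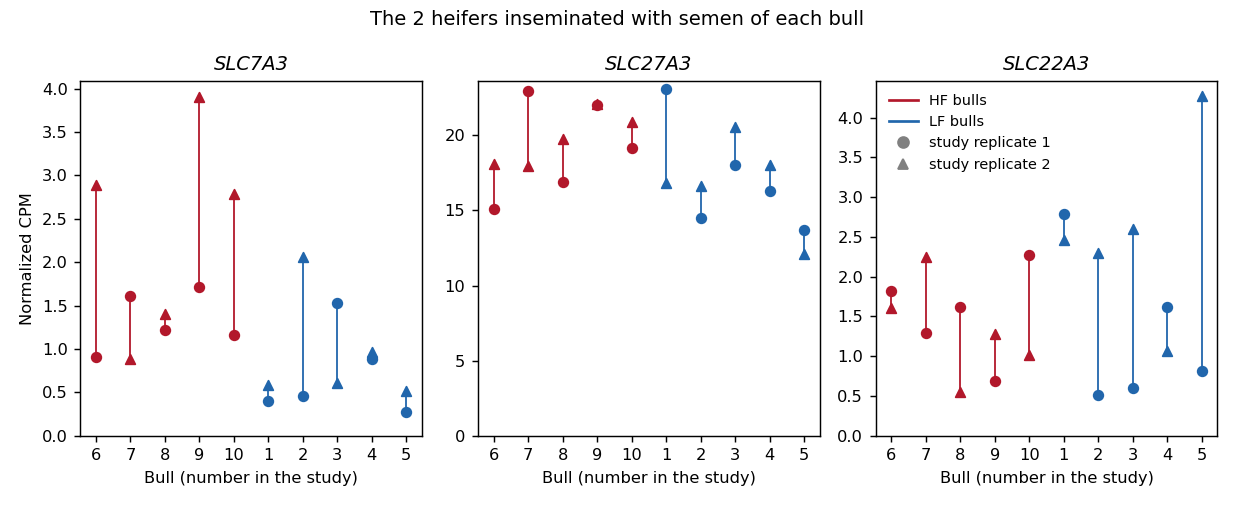
Normalized CPM (linear y axes from 0) of the 2 heifers inseminated with semen of each of the 10 bulls (x axes, by bull number, HF bulls left of LF bulls). A line joins the 2 heifers of a bull, circles are study replicate 1 and triangles study replicate 2; the lines are short for SLC27A3 and long for SLC7A3 and SLC22A3, up to a ratio of 5.25 for SLC22A3 in LF bull 5.

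The only batch recorded was the study replicate, and the carriers differed in how far they varied with it. SLC7A3 averaged 1.32 ± 0.333 CPM in HF, 0.712 ± 0.514 CPM in LF and 0.305 ± 0.227 CPM in CTRL heifers of study replicate 1 (SD, n = 5, 5 and 4), and 2.37 ± 1.22, 0.948 ± 0.649 and 0.556 ± 0.225 CPM in HF, LF and CTRL heifers of study replicate 2. The order of the treatments was thus the same in both, and the log2FC between HF and LF heifers was 0.88 in study replicate 1 and 1.31 in study replicate 2. SLC27A3 had a log2FC between LF and CTRL heifers of 0.36 and 0.39 in study replicates 1 and 2, and of 0.16 and 0.22 between HF and LF. SLC22A3 differed more between the study replicates. Its LF mean was 1.27 ± 0.959 CPM in study replicate 1 and 2.54 ± 1.14 CPM in study replicate 2 (SD, n = 5 each), and the log2FC between LF and CTRL heifers was −1.92 in study replicate 1 and −0.34 in study replicate 2. Between HF and LF heifers its log2FC was 0.27 in study replicate 1 and −0.93 in study replicate 2, opposite in sign. The difference between study replicates did not pass for SLC22A3 when tested as an interaction in edgeR (p = 0.0972 for HF against LF and 0.117 for LF against CTRL, adjusted p = 0.9998 and 0.9999).

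**Figure D3:**
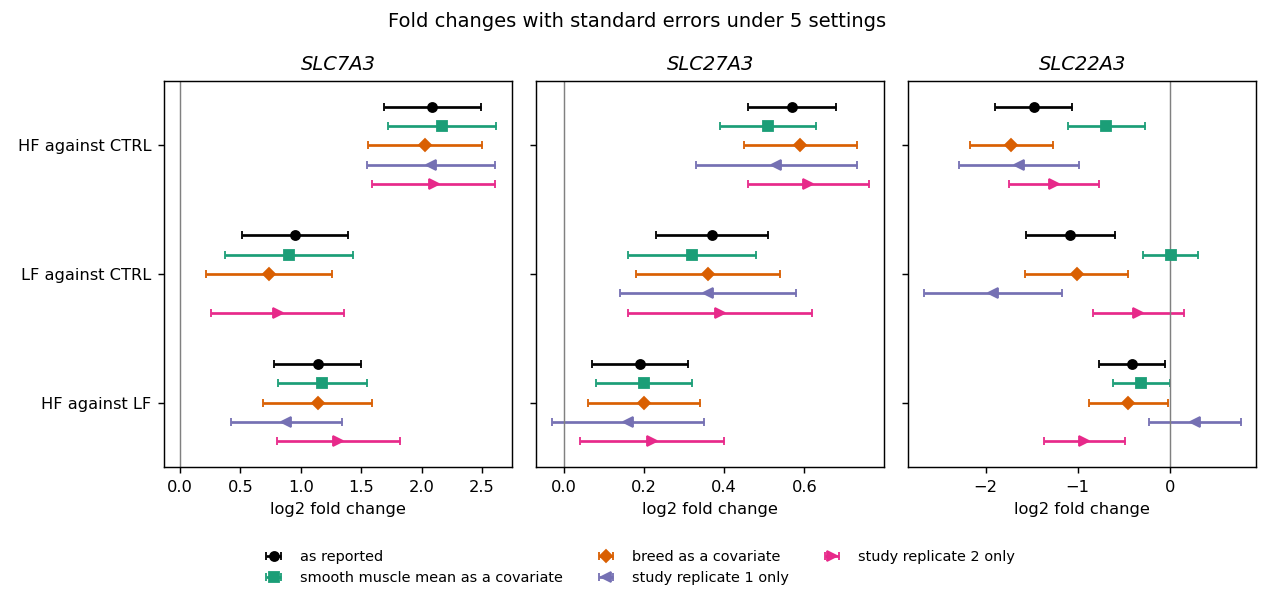
Log2 fold changes (x axes) of SLC7A3, SLC27A3 and SLC22A3 for HF against CTRL, LF against CTRL and HF against LF, with standard errors as bars, as reported and under 4 other settings. SLC7A3 and SLC27A3 stay above 0 throughout, whereas SLC22A3 moves to 0.01 for LF against CTRL once the smooth muscle mean is a covariate and to 0.27 for HF against LF in study replicate 1 only; no point is drawn for SLC7A3 between LF and CTRL heifers of study replicate 1, where it did not pass the filter on low counts.

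SLC22A3 moved together with smooth muscle genes across heifers. In a tissue sample, fewer cells of a type and less RNA per cell cannot be told apart. Of 12 smooth muscle markers 6 had a name among the IDs (ACTA2, MYLK, SMTN, SYNPO2, CALD1 and MYOCD), and none of them was at 0 in any heifer. Their summed level was 741.5 to 6222 CPM in HF (median 1293), 524.3 to 4788 CPM in LF (median 2017) and 1059 to 8713 CPM in CTRL heifers (median 5283). Between HF and CTRL heifers 6 of the 6 had a log2FC below 0, 3 of them at an unadjusted p under 0.05 (MYOCD, SYNPO2 and MYLK), and between LF and CTRL heifers likewise 6 and 3 (CALD1, MYLK and SYNPO2), with 0 called by edgeR or DESeq2. Of all named genes 38.1% stood at an unadjusted p under 0.05 between HF and CTRL heifers and 44.6% between LF and CTRL heifers. With treatment means removed, SLC22A3 correlated with the mean log2 CPM of these markers over 28 heifers with Pearson's r = 0.742 (permutation p = 5e-05, adjusted p = 0.0006) and Spearman's rho = 0.727 (permutation p = 9e-05, adjusted p = 0.00108). Without the 2 heifers farthest from the median marker level r was 0.727. Within treatments r was 0.331 in HF, 0.858 in LF and 0.886 in CTRL heifers, and it was 0.908 in study replicate 1 and 0.543 in study replicate 2.

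**Figure D4:**
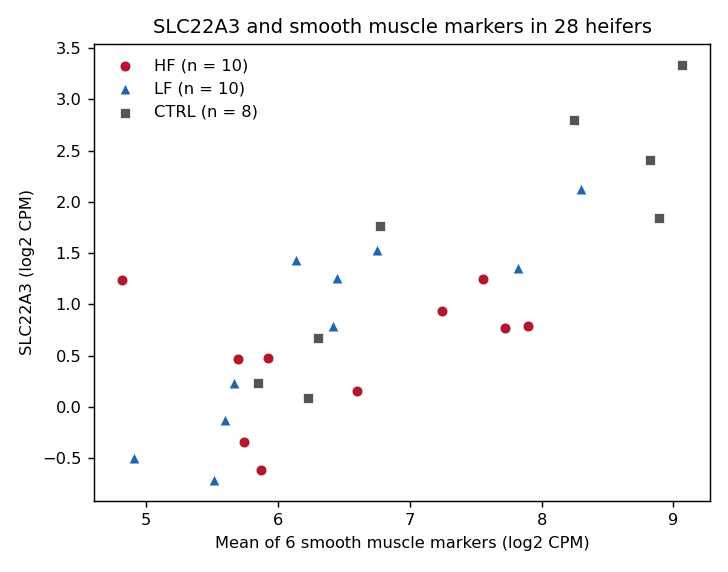
Log2 CPM of SLC22A3 (y axis) against the mean log2 CPM of 6 smooth muscle markers (x axis) in 10 HF, 10 LF and 8 CTRL heifers, each point a heifer. CTRL heifers and LF heifers line up from low to high in both measures (r = 0.886 and 0.858), HF heifers less so (r = 0.331), and CTRL1, with the most SLC22A3, is also highest in the markers.

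CTRL1, CTRL4, CTRL6 and CTRL7, the 4 CTRL heifers with the highest marker means (8.24 to 9.07 log2 CPM), held 10.02, 6.84, 5.20 and 3.49 CPM of SLC22A3. CTRL2, CTRL3 and CTRL8, with the lowest (5.85 to 6.31 log2 CPM), held 0.956, 1.49 and 1.07 CPM. CTRL5 parted from this split, with a marker mean of 6.78 log2 CPM near the low heifers but 3.29 CPM of SLC22A3, close to CTRL7. With the marker mean as a covariate the log2FC of SLC22A3 was −0.69 for HF against CTRL, 0.01 for LF against CTRL and −0.31 for HF against LF, in place of −1.48, −1.08 and −0.41. The named markers lean towards genes with small p-values between LF and CTRL heifers, since gene names were at hand mainly for such genes, and the part of muscle tissue in the result was not tested. Under the same covariate the log2FC of SLC7A3 was 2.17 for HF against CTRL, 0.90 for LF against CTRL and 1.18 for HF against LF, and that of SLC27A3 was 0.51, 0.32 and 0.20, in place of 2.09, 0.95 and 1.14 and of 0.57, 0.37 and 0.19.

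Of the 12 relations computed, among the carriers and between each carrier and the markers of smooth muscle, epithelium and stroma, SLC22A3 with smooth muscle was the only one past an adjusted p of 0.05 by Pearson's r. SLC27A3 correlated with 3 named stromal markers (VIM, COL6A3 and FBLN1) with r = 0.445 (permutation p = 0.0263, adjusted p = 0.158) and rho = 0.528 (permutation p = 0.00683, adjusted p = 0.0410), and r was 0.487 without the 2 farthest heifers and 0.543 and 0.425 within study replicates 1 and 2. Summed stromal markers were at 3781 to 6110 CPM in HF, 3483 to 6319 CPM in LF and 3657 to 6231 CPM in CTRL heifers, with medians of 4929, 5028 and 4558 CPM. The sums hide opposite differences, because VIM (log2FC 0.40) and FBLN1 (0.32) were higher and COL6A3 (−0.52) was lower in HF than in CTRL heifers, all 3 at an unadjusted p under 0.05 in edgeR and VIM also called by DESeq2, and the part of stroma in the level of SLC27A3 was not tested. Between LF and CTRL and between HF and LF heifers 0 of the 3 stood at an unadjusted p under 0.05. Within treatments the r of SLC27A3 with stroma was 0.535 in HF, 0.468 in LF and 0.322 in CTRL heifers. Of 10 epithelial markers 2 had a name (KRT8 and ESRP1), at a sum of 116.9 to 282.1 CPM in HF, 185.4 to 299.4 CPM in LF and 98.9 to 263.3 CPM in CTRL heifers, and no carrier passed in its relation to them. KRT8 and ESRP1 were higher in LF than in CTRL heifers (log2FC 0.58 and 0.30, edgeR p = 0.0134 and 0.0165) and lower in HF than in LF heifers (−0.52 and −0.32, p = 0.00270 and 0.0273), with neither called after adjustment, and the part of epithelium in the levels of the carriers was not tested. Gene names came mainly from rows sorted by p for LF against CTRL, where 44.6% of named genes stood at an unadjusted p under 0.05. The p-values of these 2 markers are therefore not independent of the naming, and HF against LF shares the LF heifers. Endothelial and leukocyte markers had no name among the IDs and were not analysed here.

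No relation among the 3 carriers passed once treatment means were removed. SLC7A3 and SLC27A3 had r = 0.0625 and rho = 0.1002 over 28 heifers (permutation p = 0.764 and 0.624), with r = 0.576 within HF, 0.192 within LF and −0.638 within CTRL heifers. SLC22A3 had r = −0.143 with SLC7A3 and −0.0922 with SLC27A3 (permutation p = 0.503 and 0.661, adjusted p = 0.837 for all 3 pairs). HF9 was highest in SLC7A3 and among the highest in SLC27A3 at 22.1 CPM, whereas LF1, the highest of all heifers in SLC27A3, had 0.406 CPM of SLC7A3.

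The named genes most like each carrier over the 28 heifers were found by Pearson's r of log2 CPM among 15162 genes, 1512 of them named, as a description that includes the differences between treatments. For SLC7A3 they were INHA, the inhibin alpha subunit (r = 0.827), GLT8D2, a glycosyltransferase (0.816), and PTGDS, a prostaglandin D synthase (0.804), and with treatment means removed r was 0.724, 0.675 and 0.585. For SLC27A3 they were the chemokine CCL25 (r = 0.863, and 0.750 without treatment means), the fatty acid binding protein FABP7 (0.767 and 0.554) and the thymidylate synthase TYMS (0.758 and 0.569). For SLC22A3 they were NEXN, an actin-binding protein of muscle (0.869 and 0.848), CFL2, the cofilin of muscle (0.864 and 0.850), and ACTA2, the smooth muscle actin (0.858 and 0.845). CCL25 and NEXN ranked first among all 15162 genes for their carriers, with or without a name.

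Other genes of the same pathways could be read only where an ID had a name. Names came mainly from rows sorted by p for LF against CTRL, where 44.6% of named genes stood at an unadjusted p under 0.05. Small p-values of these genes in that comparison are therefore partly set by the naming. Of 14 cationic amino acid carriers and their partners 3 were named. SLC7A2, another cationic amino acid transporter of the CAT family, averaged 1.65 ± 0.776 CPM in HF, 1.32 ± 0.969 CPM in LF and 3.27 ± 2.14 CPM in CTRL heifers, lower than CTRL where SLC7A3 was higher (LF against CTRL log2FC −1.30, standard error 0.44, edgeR p = 0.00839, adjusted p = 0.874). SLC7A7, which exports cationic amino acids in exchange for neutral ones, averaged 44.2, 40.4 and 29.0 CPM in HF, LF and CTRL heifers (LF against CTRL log2FC 0.48, edgeR p = 0.0541), and SLC7A6, a relative with the same mode of exchange, 25.3, 20.0 and 32.8 CPM (log2FC −0.72, edgeR p = 0.00992, adjusted p = 0.874). Between HF and LF heifers all 3 had a log2FC above 0, with 0 at an unadjusted p under 0.05. Of 18 genes of fatty acid uptake and activation only FABP7 was named, at 56.6 CPM in HF, 45.0 CPM in LF and 26.9 CPM in CTRL heifers, with a log2FC of 0.74 for LF against CTRL (edgeR p = 0.0101, adjusted p = 0.874) and 0.32 for HF against LF (adjusted p = 0.757).

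For the monoamines and histamine that OCT3 carries, 4 of 15 listed genes were named, with the same lean of the names towards small p-values between LF and CTRL heifers. MAOB, a monoamine oxidase, averaged 73.0 CPM in HF, 75.0 CPM in LF and 165.8 CPM in CTRL heifers (LF against CTRL log2FC −1.14, standard error 0.45, edgeR p = 0.0206, adjusted p = 0.874). MAOA averaged 32.7, 28.8 and 35.6 CPM, the histamine N-methyltransferase HNMT 16.3, 17.2 and 12.6 CPM, and the diamine oxidase AOC1 1.02, 1.58 and 0.798 CPM in HF, LF and CTRL heifers, all with an edgeR adjusted p of at least 0.789 between HF and LF and of 0.874 between LF and CTRL. No ID was named among 18 genes of arginine and polyamine metabolism, 5 other fatty acid transport proteins, 17 other organic ion carriers or the 4 further carriers that the study named as lower in HF heifers.

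Over all symbols of the solute carrier families 29 others had a name and 28 passed the filter on low counts. Between LF and CTRL heifers 12 had a log2FC above 0 and 16 below, 6 in each direction at an unadjusted p under 0.05, where 44.6% of all named genes stood. Their median log2FC was −0.29 against 0.01 over all genes tested, a contrast that carries the same lean of the names. The smallest p-values among them belonged to the zinc transporter SLC39A6 (48.3 CPM in LF and 66.4 CPM in CTRL heifers, log2FC −0.46, edgeR p = 0.00756), SLC7A2, the neutral amino acid transporter SLC38A2 (246.8 and 307.7 CPM, log2FC −0.32, p = 0.00895) and SLC7A6, and the adjusted p was 0.874 for all 4. The others at an unadjusted p under 0.05 were the bicarbonate cotransporter SLC4A7 (log2FC −0.94) and the phosphate transporter SLC20A2 (−0.71), lower in LF heifers, and SLC6A20 (0.58), the peptide transporters SLC15A1 (0.55) and SLC15A3 (0.52), the folate transporter SLC46A1 (0.48), SLC35C1 (0.47) and SLC23A3 (0.45), higher in LF heifers. Between HF and LF heifers 16 had a log2FC above 0 and 12 below, with a median of 0.10 against −0.03 over all genes. SLC6A15, a transporter of neutral amino acids, was the only 1 of the 28 at an unadjusted p under 0.05 with HF higher (6.08 CPM in HF and 2.61 CPM in LF heifers, log2FC 1.22, standard error 0.41, p = 0.00716, adjusted p = 0.468), and SLC35C1, a GDP-fucose transporter of the Golgi, the only 1 with HF lower (9.33 and 12.4 CPM, log2FC −0.42, p = 0.0396, adjusted p = 0.607). Between HF and CTRL heifers 12 had a log2FC above 0 and 16 below, with a median of −0.19 against −0.02 over all genes. Among the 28, 3 higher and 4 lower stood at an unadjusted p under 0.05, as did 38.1% of named genes and 16.0% of all genes. Neither edgeR nor DESeq2 called any of the 28 in a comparison. Over all genes edgeR called 0.00% in each, and DESeq2 1.71% for HF against CTRL, 0.0104% for LF against CTRL and 0.140% for HF against LF, so nothing is read from this.

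**Figure D5:**
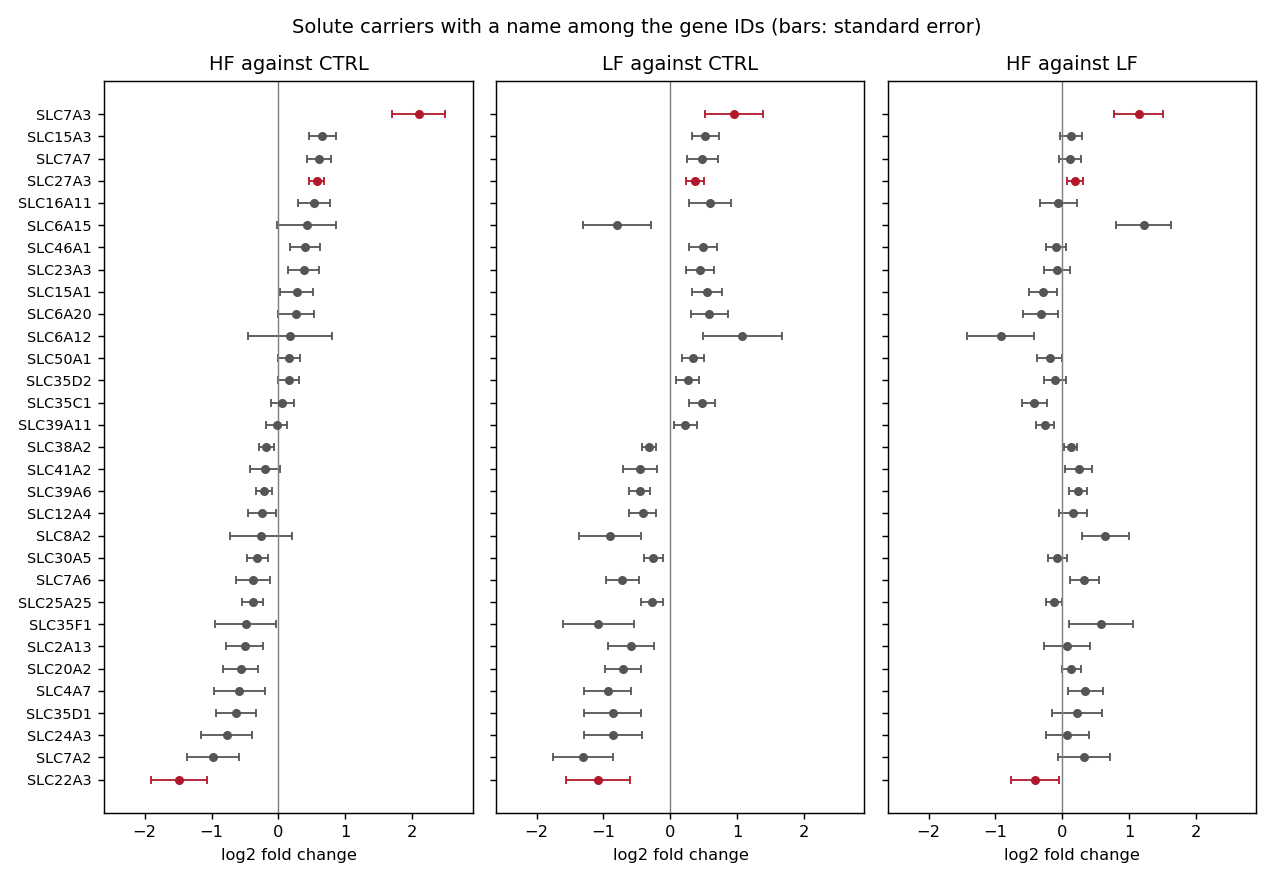
Log2 fold change (x axes) with standard error of SLC7A3, SLC27A3 and SLC22A3 (red) and 28 other named solute carriers (grey) for HF against CTRL, LF against CTRL and HF against LF, in order of the first. SLC7A3 and SLC22A3 stand at the ends of the HF against CTRL panel, the comparison on which they were chosen, and in the HF against LF panel SLC7A3 lies at 1.14, SLC27A3 at 0.19 and SLC22A3 at −0.41.

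Breed was spread unevenly over the treatments. Limousin crosses made up 4 HF, 3 LF and 4 CTRL heifers, while Charolais crosses made up 4 HF, 5 LF and 1 CTRL heifer. Other crosses were fewer, with Belgian Blue crosses in HF only (2 heifers) and a Saler cross in CTRL only (1 heifer). SLC7A3 averaged 2.48 CPM in HF, 0.647 CPM in LF and 0.420 CPM in CTRL among Limousin crosses, and 1.45, 0.972 and 0.806 CPM among Charolais crosses, where CTRL was 1 heifer. SLC27A3 averaged 20.5, 14.9 and 14.0 CPM in HF, LF and CTRL Limousin crosses and 17.7, 17.6 and 11.02 CPM in the Charolais crosses. For SLC22A3 the Limousin crosses averaged 1.03, 1.95 and 4.07 CPM and the Charolais crosses 1.67, 1.79 and 3.49 CPM. Without breed the log2FC for LF against CTRL was 0.95, 0.37 and −1.08 for SLC7A3, SLC27A3 and SLC22A3, with standard errors of 0.44, 0.14 and 0.48. With breed as a covariate it was 0.74 for SLC7A3 (standard error 0.52, edgeR p = 0.171), 0.36 for SLC27A3 (0.18, p = 0.0562) and −1.01 for SLC22A3 (0.56, p = 0.0927). None kept an unadjusted p under 0.05 in this fit, where the log2FC of SLC27A3 and SLC22A3 moved little and standard errors rose. For HF against LF the log2FC with breed as a covariate was 1.14 for SLC7A3 (p = 0.0222), 0.20 for SLC27A3 (p = 0.175) and −0.45 for SLC22A3 (p = 0.310), and the adjusted p was 1 for all of these.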

How the data were processed

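RNA was sequenced from 1 uterine biopsy of each of 28 heifers. The values deposited are whole-number counts per Ensembl gene, which the authors made by trimming reads, aligning them to ARS-UCD1.2 with STAR and counting uniquely mapped reads, and which they did not normalize. Versions in the submitters' processing notes are STAR 2.6.1b and Subread 1.6.3. Libraries were stranded, but how strand was set in counting is not stated in the sources at hand. Treatment came from the sample labels, and bull, breed and study replicate from the study's supplement. The files hold IDs without names, and 1522 IDs were named from the study's tables and the rows at hand of its supplement (1510 of 1685 rows). Those rows are sorted by p for LF against CTRL, so 44.6% of 1497 named genes stood at an unadjusted p under 0.05 in that comparison against 1.28% of 13352 others. Non-coding genes were kept. No sequences of the carriers were used here.

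Only the heifers of the 2 treatments compared entered each fit with edgeR 4.0.16 in R 4.3.3 (TMM, filterByExpr at a minimum count of 10, glmQLFit, glmQLFTest, Benjamini-Hochberg adjusted p under 0.05 over all genes tested). A filter over all 28 heifers, used for the search for similar genes, left 15163 genes. DESeq2 1.42.0, the tool of the study, was the alternative. Intervals of log2FC are 95% by a normal approximation, with the standard error taken from the log2FC and its F statistic. With this few heifers such intervals are somewhat too narrow. Log2 CPM used a prior count of 2, permutation tests were 2-sided (exact, or 100000 resamples between HF and LF and for correlations, permuted within treatments), and 6 single-gene permutation tests were run. The fits were tested on simulated data. Replicates are separate heifers, and every pair within a treatment differed by more than sampling noise (chi-square per degree of freedom at least 18.4 in 118 pairs). The carriers and the gene lists were chosen with earlier results of these data known. Genes named besides the carriers were, of each list, those called by edgeR or DESeq2 in any comparison, or else the 2 with the smallest p in LF against CTRL and in HF against LF, the named relatives, the 3 most similar genes per carrier, and the solute carriers with the smallest p in LF against CTRL and HF against LF. Alternatives were the DESeq2 size factors, no filter, DESeq2, covariates (study replicate, breed, smooth muscle mean), all 28 heifers in one fit, summed bulls, each study replicate, a replicate block and each heifer left out.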

Additional observations from a re-analysis of the deposited data

How the results depend on the processing

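In the 2 tested comparisons 177 of 179 alternative fits of the 3 carriers kept the direction, and none was past the threshold. For HF against CTRL, where no threshold was applied to the carriers, all 87 fits kept the direction. SLC22A3 moved most, from −1.48 to −0.69 (standard error 0.42 in both) once the smooth muscle mean was a covariate. The 3 carriers were among the DESeq2 calls, made with the tool and the comparison that chose them. The 2 fits of the tested comparisons that turned were SLC22A3 for LF against CTRL once the smooth muscle mean was a covariate (log2FC 0.01, standard error 0.30) and SLC22A3 for HF against LF in study replicate 1 only (0.27, standard error 0.50), and the cause was not tested. With each heifer left out in turn, log2FC for HF against CTRL ran from 1.91 to 2.27 for SLC7A3, from 0.53 to 0.62 for SLC27A3 and from −1.63 to −1.15 for SLC22A3. For LF against CTRL it ran from 0.70 to 1.13, from 0.31 to 0.43 and from −1.30 to −0.74, and for HF against LF from 0.96 to 1.39, from 0.15 to 0.25 and from −0.52 to −0.18, each in the same order of genes. Over these fits the adjusted p of SLC7A3 for HF against LF ran from 0.208 to 0.736. The number of genes that edgeR called was 0 in all 3 comparisons and DESeq2 called 328 for HF against CTRL, 2 for LF against CTRL and 27 for HF against LF. With a heifer left out edgeR called 0 to 91 genes for HF against CTRL (91 without CTRL2 and 3 without CTRL6) and 0 to 0 in the other comparisons. SLC7A3 gave no value for LF against CTRL in study replicate 1 only, where it did not pass the filter. Counts of 1 to 12 per CTRL heifer limit the precision for SLC7A3.

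Heifers with one replicate number in the labels are different animals with different bulls or none. HF and LF heifers with one number belong to one study replicate, as do those of CTRL except CTRL5, but each study replicate holds several numbers, and it was fitted as a covariate of its own. Whether a number marks a shared day is not given in the sources used. The deviations of heifers with one number correlated at over 0.1 for 5 of 8 numbers between HF and CTRL, 4 of 8 between LF and CTRL and 5 of 10 between HF and LF, and a heifer correlated best with its own number in 2, 0 and 0 pairs, so the numbers were not treated as pairs. This check could miss a pairing that is weak beside other differences between heifers. With a replicate block the log2FC of SLC7A3, SLC27A3 and SLC22A3 was 1.85, 0.53 and −1.12 for HF against CTRL, 0.93, 0.41 and −1.11 for LF against CTRL and 1.23, 0.20 and −0.25 for HF against LF, and the block left 0 genes called in all 3 comparisons.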
